A study of Mus musculus with 18 samples.

Results

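The transcripts of 8 AP-1 genes, Fos, Fosb, Fosl2, Jun, Junb, Jund, Atf3 and Batf, were followed in group 2 innate lymphoid cells (ILC2). They were taken by gene symbol from the 24781 genes of the deposited table, and all 8 were present. Of these, 6 had enough counts to be among the 1916 genes tested, and Jun and Batf did not. AP-1 is a dimeric transcription factor. A FOS, ATF or BATF protein pairs with a JUN protein through a leucine zipper, and the basic region beside the zipper binds DNA. In lymphocytes the FOS and JUN genes are known as immediate-early genes, which respond within minutes to MAP kinase and calcium signals, and their products act with NFAT at cytokine genes.

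ILC2 are lymphocytes without rearranged antigen receptors that make type 2 cytokines. The series set CD45 KO x Rag2 KO mice against Rag2 KO mice, here called CD45 KO and control. Every group therefore lacked Rag2, which T and B cells need in order to develop. CD45, encoded by Ptprc, is a receptor tyrosine phosphatase that acts on Src-family kinases. There were 6 groups of 3 libraries: lung ILC2, mature bone marrow ILC2 and immature bone marrow ILC2 (ILC2P), each from CD45 KO and from control mice. The labels give no age or sex of the mice and nothing on whether replicates came from separate mice, so p-values measure the spread between these libraries, which may be technical.

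Libraries held 68077 to 122250 counts and 7189 to 8793 detected genes. Levels are given as CPM (counts scaled to a common library total), scaled with TMM library sizes. Ptprc averaged 165 CPM in CD45 KO and 579 CPM in control lung libraries, 142 and 418 CPM in mature marrow, and 93.0 and 389 CPM in immature marrow. The labels do not give the deleted part of Ptprc, so the remaining counts do not measure residual protein. The library labelled mature CD45 KO replicate 1 stood apart: it differed from its group by 4.19 and 4.59 times the sampling noise (chi-square per degree of freedom), against 1.14 to 2.28 for every other pair of replicates. Its Ptprc level was 238 CPM, against 101 and 88.0 CPM in replicates 2 and 3 of its group. Mature control libraries had 253, 458 and 541 CPM of Ptprc. Xist had 52 to 105 counts in each of the 6 lung libraries and 0 in all 12 marrow libraries, whereas 4 Y-linked genes (Ddx3y, Eif2s3y, Kdm5d and Uty) summed to 0 counts in lung and 10 to 32 counts in every marrow library. Tissue and sex of the mice therefore cannot be told apart in any comparison of lung with marrow. All 10 ILC2 markers were detected in every group. Their summed level was 9651 to 11176 CPM in lung CD45 KO and 9573 to 10244 CPM in lung control libraries, and 6218 to 8570 CPM in marrow. Markers of T cells, B cells, and NK cells with ILC1 summed to at most 52.8, 33.7 and 17.6 CPM in any library, those of lung epithelium and stroma to at most 83.4 CPM and those of erythroid cells to at most 158 CPM. The T cell sum covers 5 of 8 listed markers, since Trac, Trbc1 and Trbc2 were absent from the deposited genes.

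The promoters shown are those of the 4 genes that had 0 counts in all 6 immature marrow libraries. Each is the RefSeq window of 250 bases before to 50 bases after the annotated start, on build GRCm38.p6, written 5′ to 3′ on the strand of the gene. Capitals mark TGACG or its reverse complement, the core of the cyclic AMP response element, and for Jun TGACATCA, a variant AP-1 element. Fos lies at chr12:85473640-85473939 (+), Fosb at chr7:19309996-19310295 (-), Jun at chr4:95052173-95052472 (-) and Atf3 at chr1:191183284-191183583 (-).
Fos: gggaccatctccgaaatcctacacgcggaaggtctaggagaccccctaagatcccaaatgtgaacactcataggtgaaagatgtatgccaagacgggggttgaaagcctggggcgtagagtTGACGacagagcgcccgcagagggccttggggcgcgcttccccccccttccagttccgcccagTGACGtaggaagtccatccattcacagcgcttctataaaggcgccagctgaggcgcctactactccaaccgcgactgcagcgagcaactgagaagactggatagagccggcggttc
Fosb: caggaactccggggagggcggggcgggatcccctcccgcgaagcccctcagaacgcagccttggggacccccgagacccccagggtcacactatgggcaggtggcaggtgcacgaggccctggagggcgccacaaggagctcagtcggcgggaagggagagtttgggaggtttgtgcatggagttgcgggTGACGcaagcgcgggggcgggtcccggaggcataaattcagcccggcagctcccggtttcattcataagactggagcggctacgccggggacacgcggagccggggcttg
Jun: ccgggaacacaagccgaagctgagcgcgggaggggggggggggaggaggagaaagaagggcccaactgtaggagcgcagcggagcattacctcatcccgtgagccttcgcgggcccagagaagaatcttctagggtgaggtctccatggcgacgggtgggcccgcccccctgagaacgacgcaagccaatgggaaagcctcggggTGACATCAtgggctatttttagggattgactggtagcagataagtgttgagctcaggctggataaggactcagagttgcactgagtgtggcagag
Atf3: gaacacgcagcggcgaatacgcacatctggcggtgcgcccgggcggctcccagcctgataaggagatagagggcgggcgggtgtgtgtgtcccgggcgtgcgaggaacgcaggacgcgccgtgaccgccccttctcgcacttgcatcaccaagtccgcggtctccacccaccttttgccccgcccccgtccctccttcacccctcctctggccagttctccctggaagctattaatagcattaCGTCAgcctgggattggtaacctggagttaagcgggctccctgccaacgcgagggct

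On both strands, TGACG was present in 5 of the 8 promoter windows (Fos, Fosb, Junb, Atf3 and Batf) and in 20.8% of the 32851 RefSeq promoter windows of the same length. In Fos it began 129 and 66 bases before the start, and in Fosb 60 bases before it. TGACATCA was present in Jun, 45 bases before the start, and in 3.62% of all windows. The AP-1 site TGACTCA (5.2% of all windows), the full element TGACGTCA, which contains TGACG (1.79%), and the CArG box of serum response factor (1.63%) were in 0 of the 8. A match is a description of letters in this window, and no binding was measured.

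In the GENCODE M21 annotation of the same build, all 8 genes are protein-coding. Fos spans chr12:85473890-85477273 and Batf chr12:85686669-85709087, both on the plus strand, so these genes are on the same chromosome. Fosb spans chr7:19302696-19310051 on the minus strand and Fosl2 chr5:32135801-32157842 on the plus strand. Jun spans chr4:95049034-95052222 on the minus strand and overlaps the antisense gene Junos. Junb spans chr8:84974484-84978718 on the minus strand and overlaps Prdx2 on the plus strand. Jund spans chr8:70698949-70700616 on the plus strand and overlaps the antisense gene Gm11175. Its RefSeq promoter window, chr8:70697489-70697788, ends before this span. The annotations thus place the start of Jund differently, and its motif counts above describe that window alone. Atf3 spans chr1:191170296-191218039 on the minus strand and overlaps the short gene Gm24748. No source used here says whether reads were assigned by strand, so for these 4 genes a count cannot be told apart from one of the overlapping partner.

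Lung ILC2 held far more AP-1 transcripts than marrow ILC2 in both genotypes. The 8 genes summed to 9359 to 9650 CPM in lung CD45 KO and 6268 to 7076 CPM in lung control libraries, and to 365 to 651 CPM in marrow libraries. As a share of all counts this was 0.971% to 0.989% in lung CD45 KO, 0.674% to 0.774% in lung control and 0.034% to 0.066% in marrow libraries. In these bulk samples, fewer cells with a transcript and less RNA per cell cannot be told apart. All 6 tested members were higher in lung in each of the 4 lung-to-marrow comparisons, where 15.7% of all tested genes were called higher against immature marrow and 14.8% against mature marrow in CD45 KO, and 14.6% and 15% in control libraries. Fos, Fosb, Fosl2 and Atf3 passed the filter on low counts through the lung libraries alone, so they had to differ and their calls support nothing. Junb and Jund were counted in every library.

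Among the FOS genes, Fos encodes the inducible partner for which the family is named. Fos had 556, 810 and 594 CPM in lung CD45 KO libraries and 551, 546 and 774 CPM in lung control libraries. In mature marrow it had 11.9, 16.8 and 0 CPM in CD45 KO and 0, 0 and 10.03 CPM in control libraries. In immature marrow it was at 0 in all 6 libraries. The lung values of the genotypes interleave, and the marrow values rest on 3 counts over the mature CD45 KO libraries and 1 count over the mature control libraries.

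The ratio of Fos in lung to mature marrow was 71.1 (23.9 to 348) in CD45 KO and 152 (26.9 to 6017) in control libraries. The brackets are exact 95% intervals for counting error. Against immature marrow, where 0 counts were replaced by a floor of 3 counts over the group, Fos was at least 70.2-fold higher in lung CD45 KO and at least 56.9-fold higher in lung control libraries.

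Fosb encodes a FOS protein with a shorter splice form, known as deltaFosB in brain. Fosb had 2044, 2392 and 2537 CPM in lung CD45 KO libraries and 1587, 1187 and 1433 CPM in lung control libraries. In marrow it had 1 count in mature CD45 KO replicate 3 (8.80 CPM) and 0 in each of the other 11 libraries. The lung-to-mature ratio was 739 (132 to 29227) in CD45 KO and at least 112 in control libraries. Against immature marrow Fosb was at least 243-fold higher in CD45 KO and at least 126-fold higher in control libraries. These are the largest bounds among the 8 genes in the immature comparisons.

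Fosl2 encodes Fra-2, a FOS protein without the strong activation domain of Fos. Fosl2 had 1099, 1107 and 1133 CPM in lung CD45 KO and 970, 749 and 791 CPM in lung control libraries. In mature marrow it had 11.9, 8.42 and 17.6 CPM in CD45 KO and 44.7, 0 and 0 CPM in control libraries. In immature marrow it had 0, 0 and 21.0 CPM in CD45 KO and 11.1, 31.0 and 24.4 CPM in control libraries. Fosl2 was the FOS gene with counts in all 4 marrow groups, although no marrow library exceeded 44.7 CPM. Its lung-to-mature fold was 79.7 (49.3 to 129, fitted) in CD45 KO and 66.3 (22.4 to 324, ratio of counts) in control libraries. Its lung-to-immature fold was 174 (47.6 to 1441, ratio of counts) in CD45 KO and 35.4 (21.9 to 57.0, fitted) in control libraries. The 3 counts of mature control marrow all lie in replicate 1, and both counts of immature CD45 KO marrow in replicate 3. Leaving out each library in turn, the fitted log2 fold change ran over 5.19 to 9.31 for lung over mature marrow in control libraries, highest without that mature replicate 1, and over 6.62 to 9.72 for lung over immature marrow in CD45 KO, highest without that immature replicate 3. The highest values are against libraries at 0 counts and are no bounds.

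Among the JUN genes, Junb encodes a partner that is known to drive type 2 cytokine genes in T helper cells. Junb had 3977, 3676 and 3400 CPM in lung CD45 KO libraries and 2943, 2802 and 2664 CPM in lung control libraries. In mature marrow it had 155, 160 and 202 CPM in CD45 KO and 149, 167 and 271 CPM in control libraries. In immature marrow it had 128, 182 and 189 CPM in CD45 KO and 144, 279 and 220 CPM in control libraries. Every lung library lay above every marrow library. By edgeR's quasi-likelihood test, Junb was 21.0-fold higher (16.5 to 26.8) in lung than in mature marrow in CD45 KO (adjusted p = 8.22e-38) and 13.6-fold higher (10.6 to 17.6) in control libraries (adjusted p = 1.2e-31). Against immature marrow it was 21.95-fold higher (17.2 to 28.0) in CD45 KO (adjusted p = 5.78e-38) and 12.9-fold higher (10.1 to 16.5) in control libraries (adjusted p = 4.12e-32).

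Jund encodes the JUN protein known for steady expression in many resting cells. Jund had 1488, 1191 and 1390 CPM in lung CD45 KO libraries and 838, 738 and 914 CPM in lung control libraries. In mature marrow it had 167, 152 and 185 CPM in CD45 KO and 149, 208 and 231 CPM in control libraries. In immature marrow it had 217, 251 and 210 CPM in CD45 KO and 287, 289 and 256 CPM in control libraries. Lung and marrow did not overlap for Jund either, but its tissue folds were the smallest of the 6 tested members. By edgeR's quasi-likelihood test, it was 7.97-fold higher (6.12 to 10.4) in lung than in mature marrow in CD45 KO (adjusted p = 1.44e-24) and 4.14-fold higher (3.10 to 5.52) in control libraries (adjusted p = 5.76e-14). Against immature marrow it was 5.89-fold higher (4.59 to 7.56) in CD45 KO (adjusted p = 4.44e-22) and 2.98-fold higher (2.30 to 3.87) in control libraries (adjusted p = 3.84e-11).

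Jun, which encodes c-Jun, was scarce in marrow by comparison with its own level in lung. Jun had 97.3, 195 and 189 CPM in lung CD45 KO libraries and 55.1, 96.3 and 70.3 CPM in lung control libraries. In mature marrow it had 11.9, 8.42 and 0 CPM in CD45 KO and 0, 13.9 and 0 CPM in control libraries. In immature marrow it was at 0 in all 6 libraries. Every lung library lay above every marrow library, with 42 counts in the lung CD45 KO and 22 in the lung control group. The lung-to-mature ratio was 26.2 (6.82 to 223) in CD45 KO and 17.6 (2.85 to 728) in control libraries. Against immature marrow Jun was at least 17.2-fold higher in CD45 KO and at least 6.62-fold higher in control libraries.

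Atf3, a stress-induced factor of the ATF family that often acts as a repressor, was detected in lung alone. Atf3 had 97.3, 261 and 243 CPM in lung CD45 KO libraries and 132, 139 and 167 CPM in lung control libraries, and 0 counts in all 12 marrow libraries. It was at least 22.05-fold higher in CD45 KO and at least 11.8-fold higher in control lung libraries than in mature marrow. Against immature marrow it was at least 21.8-fold higher in CD45 KO and at least 13.2-fold higher in control libraries.

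Batf, a small bZIP factor that pairs with JUN proteins and binds with IRF4 in lymphocytes, was not called between the tissues. Batf had 0, 18.6 and 81.0 CPM in lung CD45 KO and 0, 10.7 and 26.4 CPM in lung control libraries. In mature marrow it had 95.3, 59.0 and 88.0 CPM in CD45 KO and 74.5, 55.5 and 30.1 CPM in control libraries. In immature marrow it had 19.7, 17.3 and 63.0 CPM in CD45 KO and 22.1, 51.7 and 48.8 CPM in control libraries. In CD45 KO libraries lung and mature marrow overlap, through the lung library at 81.0 CPM, while in control libraries all 3 lung values lie below all 3 mature marrow values.

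The lung-to-mature ratio of Batf was 0.399 (0.156 to 0.913) in CD45 KO and 0.267 (0.0628 to 0.882) in control libraries, and the lung-to-immature ratio was 0.985 (0.338 to 2.77) and 0.328 (0.0763 to 1.11). These intervals cover counting error only. With no filter on low counts, edgeR's quasi-likelihood test gave adjusted p = 0.319 for lung against mature marrow in CD45 KO and 0.327 in control libraries. Against immature marrow it gave a log2 fold change of 0.03 in CD45 KO (adjusted p = 1) and -1.39 in control libraries (adjusted p = 0.515), so no lung-to-marrow test of Batf passed.

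**Figure D1:**
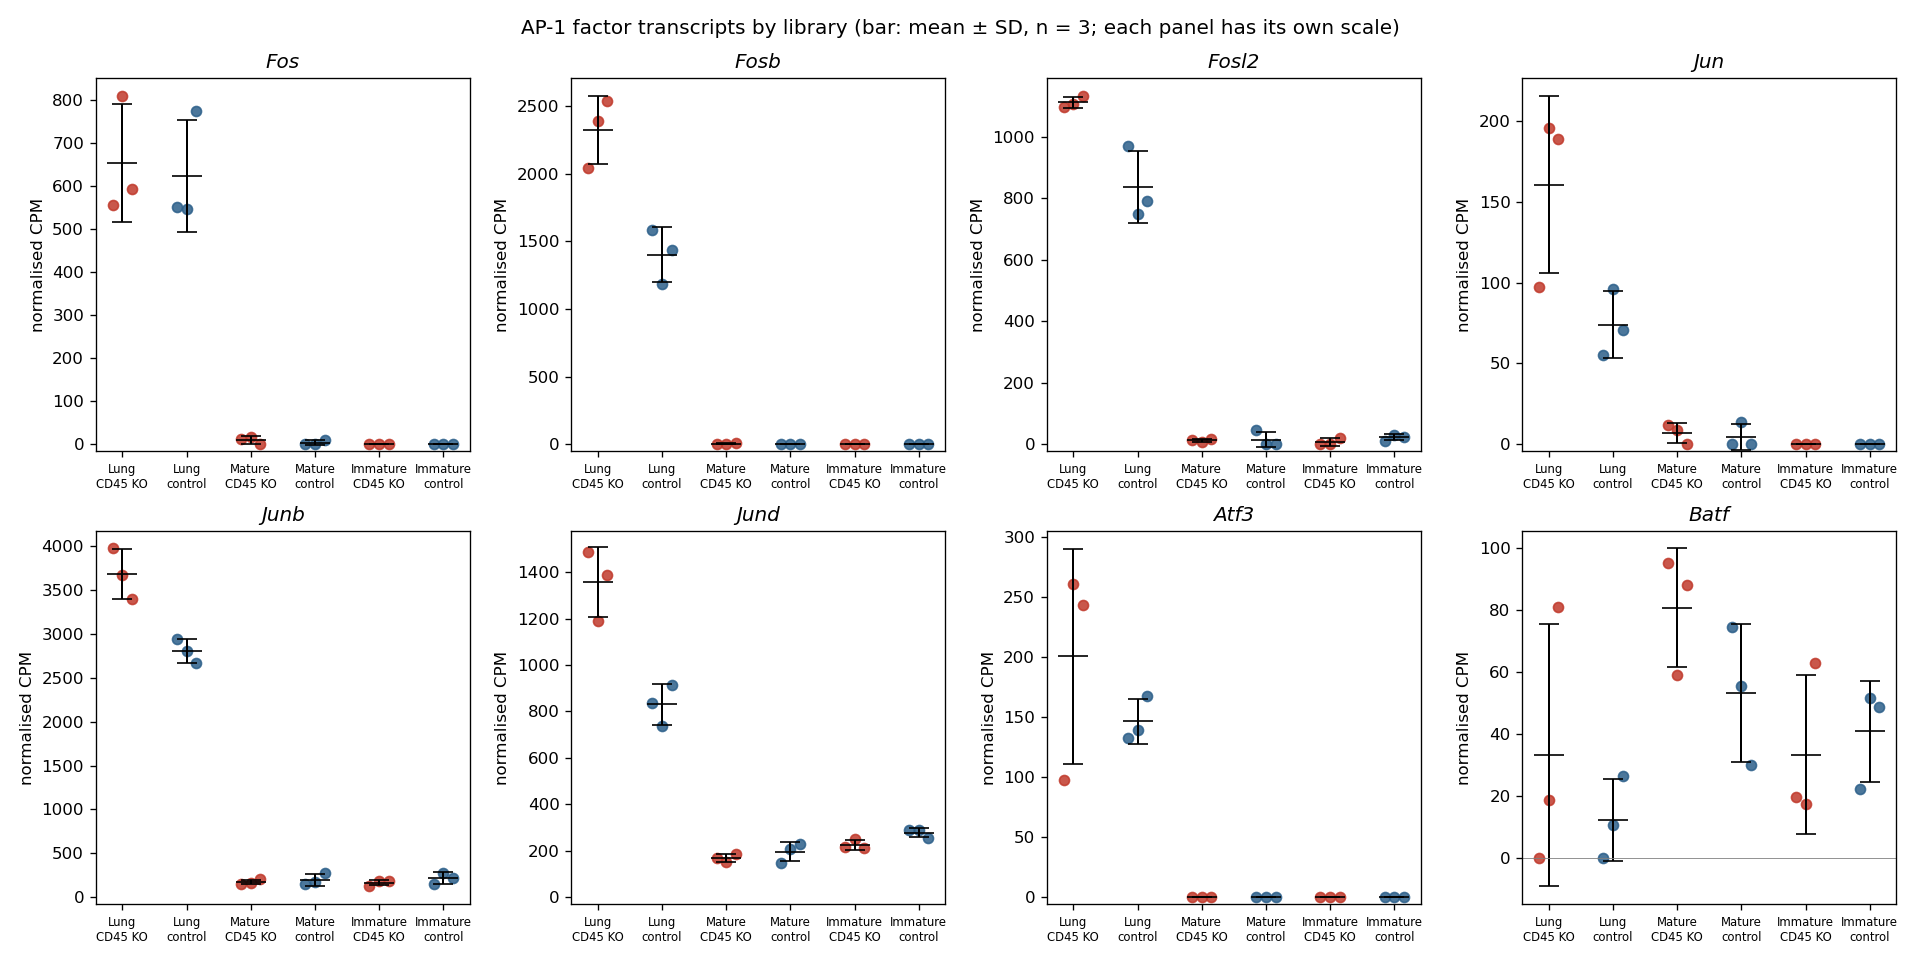
Level of each AP-1 gene in CPM on the vertical axis, 1 panel per gene with its own scale, by group on the horizontal axis, CD45 KO left of control. Points are libraries and bars are mean ± SD (n = 3). Lung lies far above marrow for 7 genes, for example Junb at 2664 CPM or more in every lung library and at most 279 CPM in marrow, and Batf alone has its highest value, 95.3 CPM, in mature marrow.

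**Figure D2:**
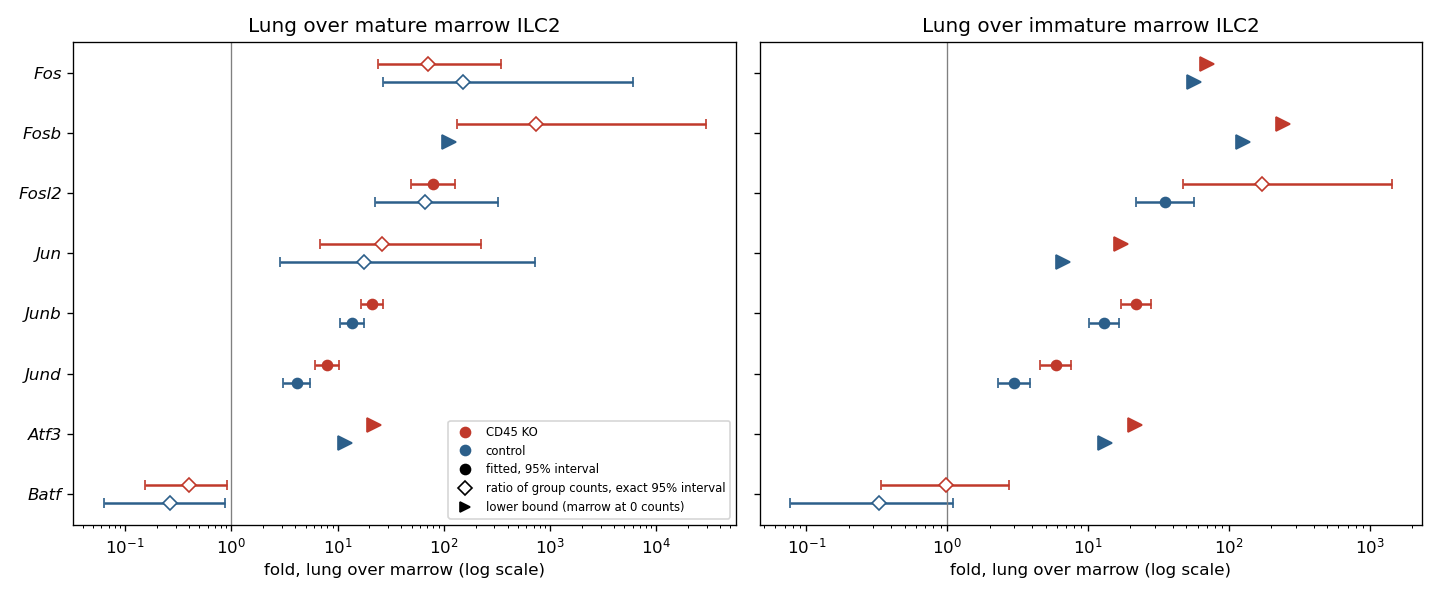
Fold of lung over mature marrow (left) and over immature marrow (right) on a logarithmic axis, with CD45 KO above control for each gene. Circles are fitted folds and diamonds ratios of group counts, both with 95% intervals, and triangles are lower bounds where marrow had 0 counts. Jund has the smallest fitted fold (2.98 in control against immature marrow), and Batf is the 1 gene with values below 1.

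The shares of the JUN transcripts are given by tissue as a description. Shares are of Jun, Junb and Jund counts together. They show balance and not which transcript is more abundant, since counts were not scaled by length. Jund made up 26.1% ± 2.27 of JUN counts in lung CD45 KO and 22.4% ± 2.43 in lung control libraries (SD, n = 3 each). In mature marrow its share was 48.4% ± 1.43 in CD45 KO and 49.9% ± 3.79 in control libraries, and in immature marrow 57.8% ± 5.11 and 57.1% ± 8.38 (SD, n = 3 each). No lung library overlapped a marrow library in this share. Junb took the larger part of the remainder, with 70.8% ± 2.24 in lung CD45 KO and 75.6% ± 2.25 in lung control libraries.

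Genes around AP-1 were read from lists in the same lung-to-marrow comparisons, in which many list genes passed the low-count filter through lung alone. The shares of all genes called higher are given above. Called lower in lung than in mature marrow were 183 of all 1916 tested genes in CD45 KO and 204 in control libraries. Against immature marrow, 183 in CD45 KO and 208 in control libraries were called lower. Of 18 genes known as AP-1 targets, 6 were tested and all 6 (Il2, Il5, Il13, Csf2, Cd44 and Odc1) were higher in lung in every comparison. All 6 passed the filter through lung alone, so these calls support nothing. Cd44, the hyaluronan receptor, averaged 631 ± 155 CPM in lung CD45 KO and 1044 ± 133 CPM in lung control libraries, and 85.3 ± 10.6 and 89.6 ± 26.2 CPM in mature CD45 KO and control marrow (SD, n = 3 each). Csf2, which encodes GM-CSF, averaged 1205 ± 68.0 CPM in lung CD45 KO and 931 ± 36.7 CPM in lung control libraries, and 37.8 ± 5.45 and 44.2 ± 16.2 CPM in mature CD45 KO and control marrow.

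All 4 tested genes of MAP kinase feedback (Dusp1, Dusp10, Spry1 and Spry2), of 12 listed, were higher in lung in every comparison, but all 4 also passed the filter through lung alone and support nothing. Dusp1, a nuclear MAP kinase phosphatase, averaged 845 ± 131 CPM in lung CD45 KO and 758 ± 35.8 CPM in lung control libraries, and 27.5 ± 19.6 and 36.8 ± 20.5 CPM in mature CD45 KO and control marrow (SD, n = 3 each). Of 15 other immediate-early genes, 13 were tested, 8 of them through lung alone, and 10 were higher and 1 was lower in lung in each comparison. The 10 included Myc and not Ier5 for lung over mature marrow in CD45 KO, and Ier5 and not Myc in the other comparisons. The lower one in each was Klf2, a factor known for its link to lymphocyte egress. It had 1 count over the 3 lung CD45 KO and 1 count over the 3 lung control libraries. In mature CD45 KO and control marrow it had 183 ± 59.9 and 141 ± 14.3 CPM. Klf2 passed the filter through marrow libraries alone, so its calls support nothing either.

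Of 26 listed kinases and factors that lead to AP-1, 6 were tested. Map3k8, which passed the filter through lung alone, was higher in lung in 3 of the 4 comparisons, and Map3k1 was lower in lung control than in immature control libraries (log2 fold change -1.13 ± 0.37, SE, adjusted p = 0.0151 by edgeR's quasi-likelihood test, 0.08 by DESeq2). The median log2 fold change of the 6 was 0.07 for lung over mature marrow in CD45 KO and 0.01 in control libraries, where the median of all tested genes was -0.03 in both. Over immature marrow it was 0.41 in CD45 KO and -0.05 in control libraries, where that of all tested genes was -0.02 in both. Of 7 tested heat shock genes, which encode chaperones, 0 were higher and 2 (Hsp90aa1 and Hspd1) were lower in lung than in mature marrow in CD45 KO, and 1 (Dnaja1) was higher and 0 lower in control libraries. In CD45 KO 3 of the 7 had an unadjusted p under 0.05 and DESeq2 called 1. Of all 1916 tested genes in that comparison, 183 were called lower by edgeR, 629 had such a p and DESeq2 called 359. Against immature marrow Dnaja1 was higher (0.85 on the log2 scale, adjusted p = 0.000576 by edgeR) and Hsp90aa1 lower (-1.28, adjusted p = 1.79e-05 by edgeR) in lung in CD45 KO. In control libraries 2 (Dnaja1 and Hspa5) were higher and 0 lower against immature marrow, with 3 at an unadjusted p under 0.05 and 1 called by DESeq2. Of 5 tested partners of AP-1, Ets2, which also passed through lung alone, was higher in lung in all 4 comparisons, with adjusted p = 0.0225 at its highest, in control libraries against immature marrow, where DESeq2 gave 0.08.

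Of 32 other bZIP genes, 7 were tested, 5 of them through lung alone, with 4 higher in lung in both CD45 KO comparisons and 3 in both control comparisons. Crem, a cyclic AMP responsive factor, averaged 426 ± 6.71 CPM in lung CD45 KO and 247 ± 34.7 CPM in lung control libraries, and 5.74 ± 4.97 and 14.2 ± 13.9 CPM in mature CD45 KO and control marrow (SD, n = 3 each). Markers of blood progenitors moved with tissue too. Their list summed to 779 to 837 CPM in lung CD45 KO and 813 to 904 CPM in lung control libraries, to 96.8 to 155 CPM in mature CD45 KO and 194 to 250 CPM in mature control marrow, and to 84.0 to 173 CPM in immature CD45 KO and 243 to 279 CPM in immature control marrow. Flt3 was at 0 in all 18 libraries and Cd34 had 1 count, and the sum was made of Kit and Hlf with a few counts of Meis1. The part of other cells in the tissue difference was not tested.

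Within the lung, 2 AP-1 genes rose without CD45. By edgeR's quasi-likelihood test of CD45 KO against control, with Benjamini-Hochberg adjustment over 1916 genes, Fosb and Jund passed of the 6 tested, and 2.04% of all tested genes were called higher (2.51% in either direction). The log2 fold change was above 0 for all 6 members, with a median of 0.45 against 0.01 over all genes tested. Unadjusted p was under 0.05 for 4 members, where 14.5% of all genes had such a p.

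Fosb averaged 2324 ± 253 CPM in CD45 KO and 1403 ± 202 CPM in control lung libraries (SD, n = 3 each), with the lowest CD45 KO library at 2044 and the highest control library at 1587 CPM. Its log2 fold change was 0.73 ± 0.13 (SE, 95% interval 0.46 to 0.997, adjusted p = 0.000151 by edgeR). That is a 1.66-fold higher level, higher in 3 of 3 CD45 KO libraries than in any control. Leaving out each lung library in turn gave log2 fold changes of 0.65 to 0.85 and adjusted p of 9.03e-05 to 0.00822.

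Jund averaged 1356 ± 151 CPM in CD45 KO and 830 ± 88.5 CPM in control lung libraries (SD, n = 3 each), again without overlap. Its log2 fold change was 0.69 ± 0.15 (SE, 95% interval 0.40 to 0.98, adjusted p = 0.00149 by edgeR), a 1.61-fold higher level. Leaving out each lung library in turn gave log2 fold changes of 0.63 to 0.79 and adjusted p of 0.00156 to 0.0243.

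Junb averaged 3684 ± 289 CPM in CD45 KO and 2803 ± 139 CPM in control lung libraries (SD, n = 3 each), and the groups did not overlap. Its log2 fold change was 0.40 ± 0.12 (SE), and at adjusted p = 0.0576 by edgeR it missed the threshold. DESeq2 gave 0.43 with adjusted p = 0.0357, and without lung CD45 KO replicate 3 edgeR gave 0.47 with adjusted p = 0.046, so the call for Junb turned on the processing.

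Fosl2 averaged 1113 ± 18.1 CPM in CD45 KO and 837 ± 117 CPM in control lung libraries (SD, n = 3 each), also without overlap. Its log2 fold change was 0.42 ± 0.16 (SE, adjusted p = 0.177 by edgeR), which did not pass. Jun averaged 161 ± 54.8 CPM in CD45 KO and 73.9 ± 20.8 CPM in control lung libraries, from 42 and 22 counts, with 97.3 CPM in the lowest CD45 KO and 96.3 CPM in the highest control library. With no filter on low counts its log2 fold change was 1.15 ± 0.42 (SE, adjusted p = 0.582 by edgeR).

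Fos averaged 653 ± 137 CPM in CD45 KO and 623 ± 130 CPM in control lung libraries (SD, n = 3 each), with overlap. Its log2 fold change was 0.08 ± 0.19 (SE, 95% interval -0.29 to 0.46, adjusted p = 0.943 by edgeR). Atf3 averaged 200 ± 89.6 CPM in CD45 KO and 146 ± 18.4 CPM in control lung libraries, and the lowest of the 6 was CD45 KO replicate 1 at 97.3 CPM. Its log2 fold change was 0.48 ± 0.38 (SE, 95% interval -0.27 to 1.24, adjusted p = 0.642 by edgeR). Batf averaged 33.2 ± 42.4 CPM in CD45 KO and 12.4 ± 13.3 CPM in control lung libraries, from 8 and 4 counts, and a difference was not detectable at this depth. In all, 5 of the 8 members (Fosb, Fosl2, Jun, Junb and Jund) had every CD45 KO library above every control library, 4 of them among the 6 tested, where 12.3% of all tested genes did so.

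Lung CD45 KO replicate 1 held 14 counts of the macrophage and monocyte list (195 CPM) and 12 counts of the eosinophil list (167 CPM), and each of the other lung libraries held 0 of both. In that library 1 of the 6 macrophage and monocyte genes (Csf1r) and 2 of the 5 eosinophil genes (Epx and Prg2) were at 0. The 12 counts were of Siglecf, Ear1 and Ear2, and which cells they came from was not tested. Without lung CD45 KO replicate 1, Fosb had a log2 fold change of 0.83 (adjusted p = 9.03e-05) and Jund 0.64 (adjusted p = 0.0136) by edgeR. The mast cell and basophil list summed to 0 to 18.6 CPM in CD45 KO and 35.2 to 53.5 CPM in control lung libraries, with 5 of its 6 genes at 0, and its part in the result was not tested.

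**Figure D3:**
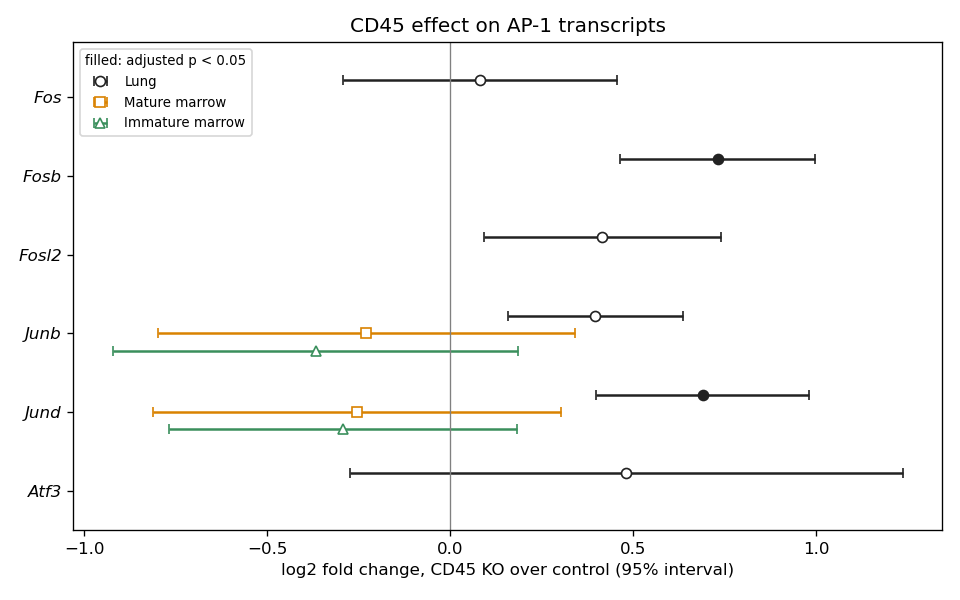
Log2 fold change of CD45 KO over control on the horizontal axis with 95% intervals, by gene and by population, for the tested members with at least 10 counts in 1 of the groups compared. Filled symbols passed an adjusted p of 0.05. In lung, Fosb (0.73) and Jund (0.69) are filled, and the marrow intervals of Junb and Jund span 0.

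The shares of the FOS transcripts in lung are given by genotype as a description. Fosb made up 55.3%, 55.5% and 59.5% of Fos, Fosb and Fosl2 counts in CD45 KO libraries and 51.1%, 47.8% and 47.8% in control libraries. The groups do not overlap, while the exact 95% binomial intervals of single libraries, for example 49.1% to 61.3% in CD45 KO replicate 1 and 45.1% to 57.0% in control replicate 1, do. Fos made up 15.04%, 18.8% and 13.9% in CD45 KO and 17.7%, 21.98% and 25.8% in control libraries, with overlap. Fosl2 averaged 27.3% ± 2.10 in CD45 KO and 29.3% ± 2.53 in control libraries (SD, n = 3 each).

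Of the JUN counts in lung, Junb made up 71.5%, 72.6% and 68.3% in CD45 KO and 76.7%, 77.1% and 73.0% in control libraries, again without overlap. Jund made up 26.8%, 23.5% and 27.9% in CD45 KO and 21.8%, 20.3% and 25.1% in control libraries, with overlap. Jun made up 1.75%, 3.86% and 3.79% in CD45 KO and 1.44%, 2.65% and 1.93% in control libraries. No test was made of these shares, which with 3 libraries a group cannot reach an exact permutation p under 0.1.

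**Figure D4:**
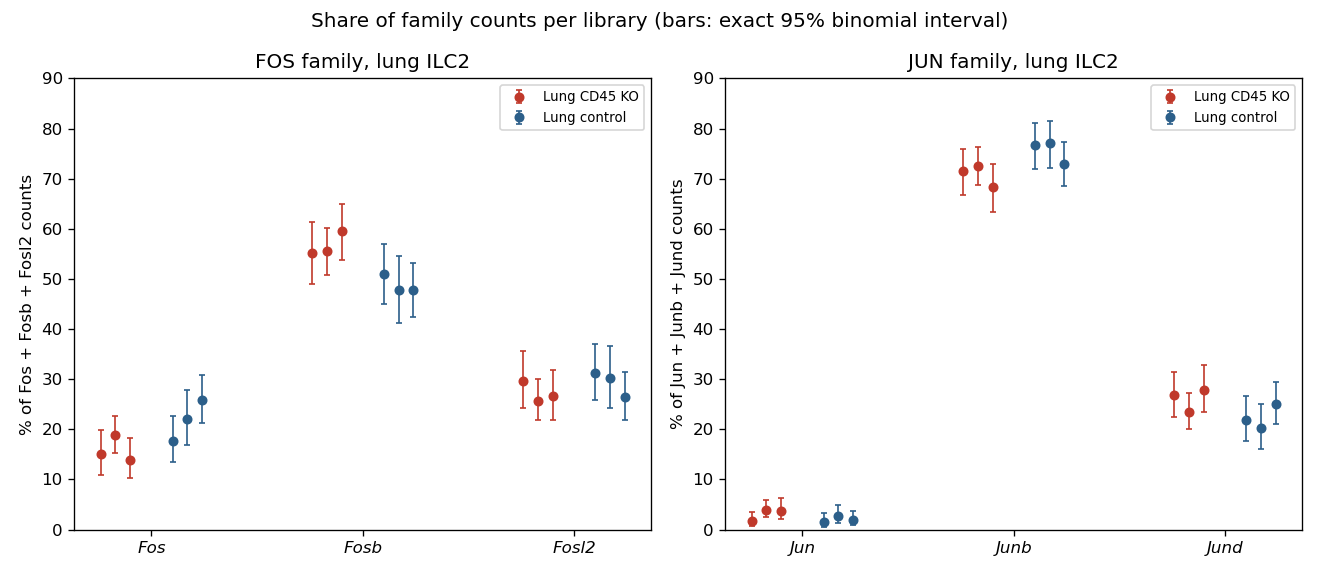
Share of each gene in the FOS counts (left) and in the JUN counts (right) of each lung library, in percent on the vertical axis, with exact 95% binomial intervals that cover counting error. CD45 KO libraries stand left of control libraries. Fosb takes 55.3% or more in every CD45 KO library and at most 51.1% in control libraries.

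In marrow, no AP-1 gene passed between CD45 KO and control. By edgeR's quasi-likelihood test 0 of 6 tested members were called in mature marrow, where 0.261% of all genes were, and 0 of 6 in immature marrow, where 1.67% were. An unadjusted p under 0.05 was reached by 0 members in either population, while 9.03% of all genes in mature and 12.3% in immature marrow reached it, and DESeq2 called 0 in both. Of the tested members, Junb and Jund alone had at least 10 counts in a group to estimate a fold from.

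In mature marrow Junb averaged 172 ± 26.1 CPM in CD45 KO and 195 ± 65.8 CPM in control libraries (SD, n = 3 each), a log2 fold change of -0.23 ± 0.29 (SE, 95% interval -0.80 to 0.34, adjusted p = 0.876 by edgeR). Jund averaged 168 ± 16.6 CPM in CD45 KO and 196 ± 42.1 CPM in control libraries, a log2 fold change of -0.26 ± 0.28 (95% interval -0.81 to 0.30, adjusted p = 0.856 by edgeR). When mature CD45 KO replicate 1 was left out, the changes were -0.16 for Junb (adjusted p = 0.923) and -0.24 for Jund (adjusted p = 0.872). Batf averaged 80.8 ± 19.2 CPM in CD45 KO and 53.4 ± 22.3 CPM in control libraries, from 25 and 12 counts, with overlap, and with no filter on low counts its log2 fold change was 0.77 ± 0.53 (SE, adjusted p = 0.952 by edgeR). Neutrophil markers summed to 25.3 to 61.6 CPM in mature CD45 KO libraries and to 90.2, 167 and 2131 CPM in control libraries, the highest in replicate 1. Blood progenitor markers summed to 96.8 to 155 CPM in CD45 KO and 194 to 250 CPM in control libraries, without overlap, and the part of either list was not tested.

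In immature marrow Junb averaged 166 ± 33.3 CPM in CD45 KO and 214 ± 67.9 CPM in control libraries (SD, n = 3 each), a log2 fold change of -0.37 ± 0.28 (SE, 95% interval -0.92 to 0.19, adjusted p = 0.639 by edgeR). Jund averaged 226 ± 21.9 CPM in CD45 KO and 278 ± 18.6 CPM in control libraries, a log2 fold change of -0.29 ± 0.24 (95% interval -0.77 to 0.18, adjusted p = 0.66 by edgeR). All 3 CD45 KO libraries lay below all 3 controls for Jund, as was so for 8.51% of all tested genes, and for no other member. Batf averaged 33.3 ± 25.7 CPM in CD45 KO and 40.9 ± 16.3 CPM in control libraries, from 10 and 11 counts. Blood progenitor markers summed to 84.0 to 173 CPM in CD45 KO and 243 to 279 CPM in control libraries, without overlap, and their part was not tested.

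The CD45 effect in lung was set against that in marrow directly, as a difference of log2 fold changes in the same fit. For Jund the lung effect exceeded the mature marrow effect by 0.94 ± 0.32 (SE, adjusted p = 0.175 by edgeR) and the immature marrow effect by 0.98 ± 0.28 (adjusted p = 0.107 by edgeR). DESeq2 gave 1.02 with adjusted p = 0.0491 for the second. For Junb the differences were 0.62 ± 0.31 (adjusted p = 0.484) against mature and 0.76 ± 0.30 (adjusted p = 0.26) against immature marrow by edgeR. So 0 of 6 members passed either test by edgeR, in which 0.313% and 0.365% of all genes did, and DESeq2 called 0 and 1.

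At an unadjusted p under 0.05 stood 2 members against mature marrow (Junb and Jund) and 3 against immature marrow (with Fosl2), where 10.1% and 12.5% of all genes did. The Fosl2 value rests on 2 counts in immature CD45 KO and 6 in immature control libraries. For Fos, Fosb and Atf3 the marrow counts were too few to estimate an effect, so that the rise of Fosb in lung was not shown to differ from marrow.

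Mature and immature marrow ILC2 did not differ detectably in AP-1 transcripts, but of the 6 tested members Junb and Jund alone had at least 10 counts in a marrow group. Batf was not tested and had 25 counts in mature and 10 in immature CD45 KO libraries. With no filter on low counts its log2 fold change there was 1.31 ± 0.55 (SE, adjusted p = 0.958 by edgeR's quasi-likelihood test), and 0.29 ± 0.63 in control libraries. By edgeR, 0 of 6 members passed in CD45 KO and 0 of 6 in control libraries, where 0.678% and 0.0522% of all genes did, and DESeq2 called 0 in both. Unadjusted p was under 0.05 for 1 member in CD45 KO, Fos, from 3 counts in mature and 0 in immature libraries, and for 0 members in control libraries, where 8.04% and 5.38% of all genes had such a p. The log2 fold change of mature over immature marrow was -0.44 ± 0.26 (SE, adjusted p = 0.711) for Jund in CD45 KO and -0.47 ± 0.26 (adjusted p = 0.986) in control libraries by edgeR. For Junb it was 0.06 ± 0.28 (adjusted p = 0.976) in CD45 KO and -0.08 ± 0.28 (adjusted p = 1) in control libraries.

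Other genes of the AP-1 pathway were read in the lung comparison of CD45 KO with control. Of 13 tested immediate-early genes, all 13 had a log2 fold change above 0. Klf2 among them had 1 count over the lung CD45 KO and 1 over the lung control libraries, so its sign supports nothing. The median of the 13 was 0.51, against 0.01 over all genes tested. By edgeR's quasi-likelihood test 3 of them passed as higher, where 2.04% of all 1916 tested genes did. Egr1, a zinc finger factor induced through ERK, averaged 612 ± 136 CPM in CD45 KO and 127 ± 18.6 CPM in control libraries (SD, n = 3 each), a log2 fold change of 2.24 ± 0.28 (SE, adjusted p = 8.81e-09). Nr4a3 and Nr4a1, orphan nuclear receptors induced by antigen receptor signals in T cells, changed by 1.11 ± 0.17 (adjusted p = 1.93e-06) and 0.46 ± 0.13 (adjusted p = 0.0302).

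Of 6 tested AP-1 targets, 2 rose and 1 fell, where 39 of all 1916 tested genes rose and 9 fell. Il5, the eosinophil growth factor, averaged 1028 ± 279 CPM in CD45 KO and 585 ± 116 CPM in control libraries (log2 fold change 0.86 ± 0.19, adjusted p = 0.00191 by edgeR). Il13 averaged 276 ± 64.5 CPM in CD45 KO and 105 ± 80.1 CPM in control libraries (1.42 ± 0.40, adjusted p = 0.0346 by edgeR). Il13 passed the filter on low counts through the lung CD45 KO libraries alone, so its call supports nothing. Cd44 fell by 0.69 on the log2 scale (SE 0.17, adjusted p = 0.0063 by edgeR), with 631 ± 155 CPM in CD45 KO and 1044 ± 133 CPM in control libraries. The median of the 6 targets was 0.13.

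Of 5 tested partners of AP-1, 1 rose: Ets2, an ETS factor that responds to RAS signals, with 302 ± 27.9 CPM in CD45 KO and 110 ± 9.84 CPM in control libraries (log2 fold change 1.44 ± 0.33, adjusted p = 0.00337 by edgeR). Ets2 too passed the filter through the lung CD45 KO libraries alone, so its call supports nothing. Of all 1916 tested genes, 39 rose and 9 fell. Of 7 other bZIP genes, 0 rose and 1 fell: Maf, a factor of type 2 cytokine expression in T cells, with 132 ± 14.9 CPM in CD45 KO and 263 ± 68.1 CPM in control libraries (-0.99 ± 0.29, adjusted p = 0.0467 by edgeR). For Egr1, Il5, Il13, Ets2 and Maf, DESeq2 gave no adjusted p, and it called Nr4a3, Nr4a1 and Cd44.

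By edgeR, 0 of 6 genes on the MAP kinase route passed in lung (0 at an unadjusted p under 0.05, 0 by DESeq2), with a median log2 fold change of 0.00. Likewise 0 of 4 feedback genes passed (1 at an unadjusted p under 0.05, Spry2, and 0 by DESeq2), with a median of 0.12, and 0 of 7 heat shock genes passed (1 at an unadjusted p under 0.05, Hsp90aa1, and 0 by DESeq2), with a median of 0.06. In mature marrow 0 genes of these lists passed by edgeR or DESeq2, where edgeR called 0.261% of all genes. There 1 feedback gene, 3 immediate-early genes and 3 heat shock genes had an unadjusted p under 0.05, as had 9.03% of all genes. In immature marrow 1 gene of these lists passed by edgeR, which called 1.67% of all genes, and 0 passed by DESeq2. The 1 was Hsp90aa1, which encodes a cytosolic chaperone, with 432 ± 27.8 CPM in CD45 KO and 237 ± 46.0 CPM in control libraries (log2 fold change 0.86 ± 0.23, adjusted p = 0.0296 by edgeR). In immature marrow 1 MAP kinase route gene, 1 partner, 1 immediate-early gene and 3 heat shock genes had an unadjusted p under 0.05. So had 12.3% of all genes. For Hsp90aa1 the CD45 effect in lung minus that in immature marrow was -1.54 ± 0.36 (SE, adjusted p = 0.0144 by edgeR). That test called 0.365% of all genes, and DESeq2 gave Hsp90aa1 no adjusted p.

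Ordered by mean level, lung CD45 KO stood first and lung control next for 7 of the 8 genes. The step from lung control to the highest marrow group was free of overlap for each of the 7. Fos, Fosb, Fosl2 and Atf3 passed the filter on low counts through lung alone. Jun was not tested and had at most 2 counts in a marrow group. For these genes the lack of overlap supports nothing, which leaves Junb and Jund. Of all tested genes, 18.8% in CD45 KO and 20.5% in control libraries had every lung library above every mature marrow library, and 19.9% and 20.1% above every immature one. Lung CD45 KO and lung control overlapped for Fos and Atf3. For Batf, mature CD45 KO stood first and mature control next, with overlap.

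The genes most like AP-1 were found by correlation with the mean z-score of the 6 tested members (log2 CPM) among 1871 other genes. Over all 18 libraries these were Ccl1 (Pearson r = 0.998), Nr4a3 (0.997), Cxcl2 (0.997), Nr4a2 (0.996) and Xist (0.994), each at 0 in every marrow library. Xist, which separates the tissues by sex of the mice, was thus among them. With each group's mean subtracted, Akap8 (0.892), Mir682 (0.742), Socs1 (0.736), Dnajc2 (0.717) and Trmt112 (0.714) came first. Akap8 had 15 counts over the lung CD45 KO libraries and 21 over the lung control libraries, so that these values rest on few counts. Between pairs of members, r lay between 0.939 and 0.99 over the 18 libraries, and between -0.579 and 0.418 with group means subtracted.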

How the data were processed

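Per the labels' protocols, 200 ILC2 were sorted per sample (the extract protocol speaks of 100 per tube), and oligo-dT cDNA with a molecular barcode was amplified. The authors deposited whole-number counts per gene symbol for 18 libraries, unscaled. STAR and mm10 are named in the submitters' processing notes, and no source used here names the counting tool, its use of strand or any collapsing of barcodes. Counts were scaled with TMM, filtered with filterByExpr (minimum count 10) and fitted as 6 group means in edgeR 4.0.16 (R 4.3.3), with a quasi-likelihood test per contrast, Benjamini-Hochberg adjustment over 1916 genes and a threshold of 0.05. SE is the absolute log2 fold change over the square root of F. DESeq2 1.42.0 was an alternative. Steps were tested on simulated data. Members, lists and comparisons were chosen with earlier results of these data known. All 8 members are named, with up to 4 passing genes of each other list, by smallest p, of which the text gives a part, and the 5 most like genes. A few genes outside this rule (Spry2, Hspd1 and the markers) were named after their values were seen. Exact intervals and floors cover counting error only, while fitted intervals come from the quasi-likelihood fit and include the spread between libraries. Spike-in rows were not used. Replicate numbers were not used to pair libraries in the main fit, since the labels do not say what they mark. A marker gene of the blood progenitor list is not reported here.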

Additional observations from a re-analysis of the deposited data

How the results depend on the processing

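Limits are few libraries and few counts: marrow held 0 to 6 counts per group of Fos, Fosb, Fosl2, Jun and Atf3, so CD45 effects on them in marrow were not detectable at this depth. Of the single-gene values under alternative settings, 555 kept direction and side of the threshold, 6 passed where they had not and 8 changed sign.

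The count of members that passed for the CD45 effect in lung against immature marrow was 0 by edgeR and 1 by the DESeq2 Wald test, Jund. Leaving out libraries gave 2 to 3 members for CD45 KO against control in lung, 6 to 7 for both lung-to-marrow comparisons in CD45 KO, 7 for both in control libraries and 0 for the others. The member beyond the 6 was Jun, which entered these tests when a library was left out. It did so through the lung libraries alone, so its calls support nothing. For Junb in lung, adjusted p was 0.0258 with DESeq2 size factors, 0.0289 with a filter of 10 counts in 3 libraries, 0.0368 without Rn45s and Rn4.5s (chosen after seeing the data) and 0.046 to 0.236 leaving out libraries. Signs changed for 2 genes, and the cause was not tested. Fos in lung had a log2 fold change of -0.00061 when the libraries of the contrast alone were fitted, and -0.13 to 0.29 leaving out libraries, lowest without lung CD45 KO replicate 2. Leaving out libraries, Junb had -0.37 to 0.13 in mature marrow (highest without control replicate 3). For mature over immature marrow Junb had -0.091 to 0.15 in CD45 KO, with -0.067 without mature replicate 3, and -0.44 to 0.18 in control libraries, with 0.071 and 0.029 without mature replicates 1 and 2.

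The replicate number as a block gave log2 fold changes of 0.74 for Fosb (adjusted p = 0.000127) and 0.70 for Jund (adjusted p = 0.00128) in lung by edgeR and changed no member's call. Over 9 pairs of groups, deviations of libraries with the same number correlated at -0.0888 to 0.0755. At this depth deviations hold much sampling noise, so these values cannot tell whether libraries with the same number share mice.

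The number of all genes called, behind the percentages, moved by over 1.5 times in several comparisons. CD45 KO against control called 5 genes in mature marrow (1 by DESeq2, 0 when its libraries alone were fitted, 12 without CD45 KO replicate 1), 32 in immature marrow (10 by DESeq2) and 48 in lung (22 with no filter). Mature against immature marrow called 13 in CD45 KO (3 by DESeq2) and 1 in control libraries (4 with no filter). The differences of CD45 effects called 6 against mature and 7 against immature marrow (10 and 21 by DESeq2).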
